A study of Mus musculus and Homo sapiens with 12 samples.

Results

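The human globin genes were followed in the chromatin-associated RNA (caRNA) of K562 cells, in libraries made before and after pull-down with an antibody against 5-methylcytosine (m5C). The 9 genes were HBZ, HBM, HBA2, HBA1 and HBQ1 of the alpha locus and HBE1, HBG2, HBG1 and HBB of the beta locus. They were found by Ensembl ID among the 58721 genes of the K562 count table. Of the 9, 7 had a count in at least 1 K562 library and 2 passed the filter on low counts. Globin counts were few: the 9 genes together took 379 counts in the 3 Input libraries and 8 counts in the 3 m5C-IP libraries.

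K562 is an established line of human leukaemia cells with erythroid features, labelled as wild type, as lymphoblast and as derived from bone marrow. Both K562 groups, Input and m5C-IP, came from cells kept in RPMI-1640 with fetal bovine serum and puromycin, and each held 3 libraries titled as replicates 1 to 3. The series also holds 3 Input and 3 m5C-IP libraries of wild-type mouse embryonic stem cells (mESC). The antibody label names the m5C antibody on K562 Input as well as on IP libraries, so groups were taken from the titles. Nothing in the labels says that replicates came from separate cultures, so the spread between them may be technical.

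Haemoglobin carries oxygen in red cells and joins alpha-like with beta-like globin chains around haem. The genes of each locus are used in turn during development. HBZ and HBE1 encode the embryonic zeta and epsilon chains, HBG1 and HBG2 the fetal gamma chains, and HBA1, HBA2 and HBB the alpha and beta chains of the adult. HBM and HBQ1 encode the mu and theta chains, which are minor members of the alpha locus. K562 is known as a model of the embryonic and fetal globin programme.

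Gene counts ranged from 10477119 to 11865285 per Input library and from 93110 to 111286 per IP library. A count of 0 therefore allowed up to 3 counts, or 0.253 to 0.286 CPM (counts scaled to 1000000 gene counts per library) in Input and 27.0 to 32.2 CPM in IP. Records that lay on no annotated gene made up 12.3% to 12.5% in Input and 25.3% to 27.0% in IP, and mitochondrial genes took 0.0312% to 0.0384% of gene counts in Input and 0.553% to 0.570% in IP. All 7 erythroid markers were detected, and their summed level was 724 to 748 CPM in Input and 852 to 997 CPM in IP. The 9 lymphoid markers summed to 2.39 to 4.42 CPM in Input and 18.5 to 64.4 CPM in IP, with MS4A1 and DNTT at 0 in every library. The lymphoblast label thus went against the markers. The 6 myeloid markers summed to 3.91 to 4.16 CPM in Input and 27.0 to 43.0 CPM in IP, with ELANE at 0. The 5 pluripotency markers summed to 0 to 0.506 CPM in Input and 0 to 10.7 CPM in IP, with NANOG and SOX2 at 0.

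The genes lie in 2 clusters. On chromosome 16, plus strand of hg38, GENCODE release 44 places HBZ at chr16:142728-154503, HBM at chr16:153892-166764, HBA2 at chr16:172876-173710, HBA1 at chr16:176680-177522 and HBQ1 at chr16:180459-181179. On chromosome 11, minus strand, it places HBB at chr11:5225464-5229395, HBG1 at chr11:5248269-5249857, HBG2 at chr11:5253188-5505605 and HBE1 at chr11:5268345-5505652. The main transcripts of HBG2 and HBE1 are far shorter and cover chr11:5253188-5254781 and chr11:5268345-5269945. The spans of these genes are long because release 44 gives them transcripts that start far upstream.

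Copies of one gene share sequence, and this bears on which reads can be counted. The coding sequences of HBA1 and HBA2 were identical over 426 bases, and their gene bodies differed at 29 of 843 aligned positions. The copies can be told apart from the stop codon onward. The following lines give the stop codon and the bases that follow it on the plus strand, 5′ to 3′, 30 bases in all, with positions that differ in capitals (chr16:177409-177438 and chr16:173598-173627). Counted from 1 at the first base of the stop codon, the changes from HBA1 to HBA2 were G18A, A22G, G24T, T26C and T29C.
HBA1: taagctggagcctcggtGgccAtGcTtcTt
HBA2: taagctggagcctcggtAgccGtTcCtcCt

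HBG1 and HBG2 differed at 2 of 441 coding positions, C227T and C410G, counted from the A of the start codon. The second of these lies in the following 60 coding bases, 5′ to 3′ on the minus strand (chr11:5248364-5248423 and chr11:5253282-5253341), with the differing base in capitals. A read from this stretch that misses the capital fits both genes equally well.
HBG1: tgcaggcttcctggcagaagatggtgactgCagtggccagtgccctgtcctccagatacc
HBG2: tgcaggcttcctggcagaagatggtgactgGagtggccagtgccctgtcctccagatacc

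The share of each gene body that occurs once in hg38 followed these copies. For HBA1, 25.7% of 50-base windows and 36.0% of 100-base windows were unique, and for HBA2 24.9% and 35.3%. For HBG1 the shares were 47.5% and 60.1%, and for HBG2 47.6% and 60.3%. HBZ, which has a pseudogene copy in the cluster, had 40.1% and 51.9%. HBM, HBQ1 and HBE1 were unique at every window, and HBB at 98.7% of 50-base windows and all 100-base windows. Records with more than 1 alignment made up 8.72% to 8.76% in Input and 31.6% to 32.4% in IP, and HTSeq leaves these out of gene counts by default. The counts of HBA1, HBA2, HBG1, HBG2 and HBZ therefore cover part of each gene, and how reads were split between copies is uncertain.

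Overlap with other genes of the same strand can also keep reads from being counted. HBE1 and HBG2 had 0 bases to themselves in GENCODE 44, because both lie inside other genes of the minus strand, among them the readthrough gene ENSG00000239920 (chr11:5254392-5678434) and ENSG00000284931 (chr11:5248270-5254783). In the whole table, 564 of 602 protein-coding genes with no base of their own on their strand were at 0 in all Input libraries, or 93.7%. The share at 0 was 26.1% of 920 genes covered by genes of the other strand alone and 18.9% of 7026 genes that overlap no gene. Among genes that the table lists under the GENCODE 44 version, the shares lay closer together, at 96.4% of 110, 50.9% of 106 and 60.4% of 513. HBG1 had 1 base to itself in GENCODE 44 and still took counts. The table lists HBG1, HBG2, HBE1, HBZ, HBM and HBQ1 under other gene versions than GENCODE 44, so their spans at the time of counting may differ from those given here. Whether HBE1 and HBG2 were covered in this way at counting was not tested, and their counts of 0 are not read as absence of the transcripts.

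**Figure D1:**
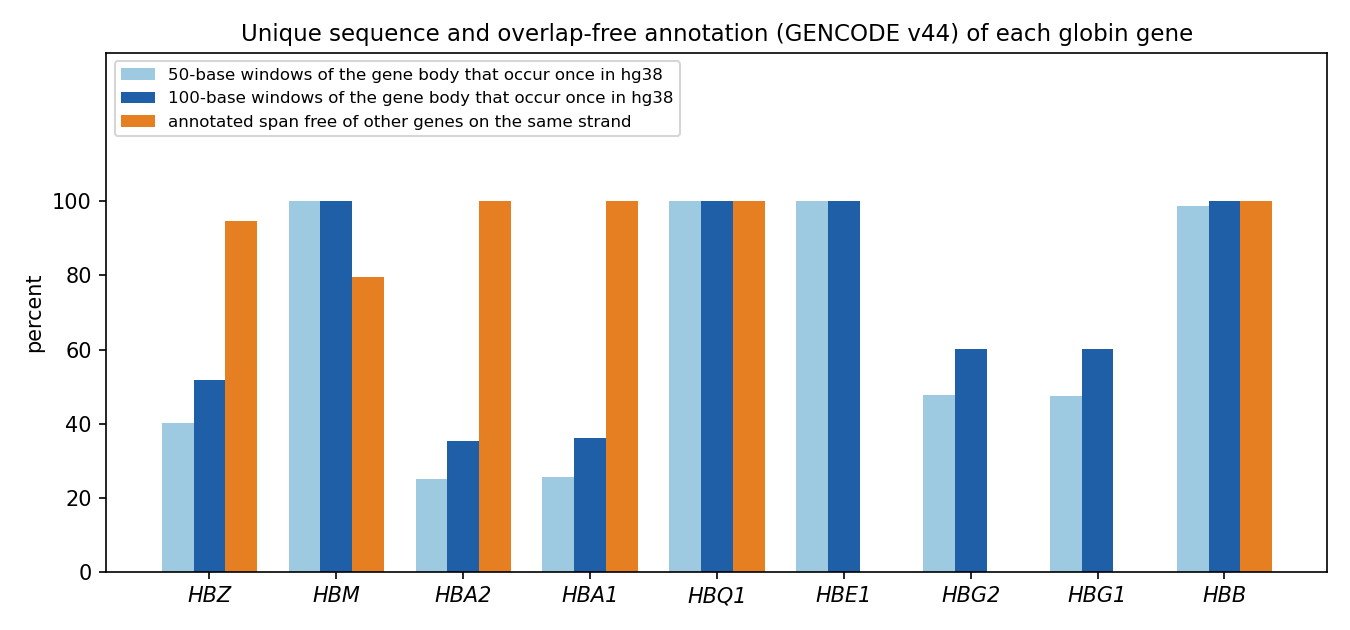
Percent of 50-base (light blue) and 100-base (dark blue) windows of each gene body that occur once in hg38, and percent of the annotated span free of other genes on the same strand (orange), for the 9 globin genes. HBA1 and HBA2 are lowest in unique windows, and HBE1, HBG2 and HBG1 have an orange bar at or near 0.

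HBG1, a fetal gamma gene, had the most counts of the 9. It took 44, 47 and 38 counts in Input replicates 1, 2 and 3, a level of 3.80 ± 0.24 CPM (SD, n = 3). HBG2, the other gamma gene, and HBE1, the embryonic epsilon gene, were at 0 in all 6 libraries. HBB, the adult beta gene, had 1, 1 and 0 counts in Input, which is at or under the limit of 3 counts. HBG1 therefore held 129 of 131 beta locus counts in Input, or 98.5% with a Wilson 95% interval of 94.6% to 99.6%. This is a share of the counts in the table, and whether reads of HBG2 and HBE1 could be assigned to them was not tested.

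The alpha locus was spread over all 5 genes. HBA1 took 25, 31 and 23 counts in Input, or 2.33 ± 0.31 CPM, and HBA2, its near-identical copy, took 9 in each, or 0.799 ± 0.053 CPM. HBQ1, the theta gene, took 19, 27 and 22 counts, or 2.01 ± 0.38 CPM. HBZ, the embryonic zeta gene, had 13, 10 and 17 counts, or 1.20 ± 0.39 CPM, and HBM, the mu gene, had 10, 11 and 13 counts, or 1.01 ± 0.21 CPM. HBA1 held 31.9% of the 248 alpha locus counts in Input (Wilson interval 26.4% to 37.9%), HBQ1 27.4% (22.2% to 33.3%), HBZ 16.1% (12.1% to 21.2%), HBM 13.7% (9.98% to 18.5%) and HBA2 10.9% (7.59% to 15.4%). The intervals of HBA1 and HBQ1 overlapped, as did those of HBZ, HBM and HBA2. Intervals and limits cover counting error only, because without molecular identifiers several reads can stem from 1 molecule.

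**Figure D2:**
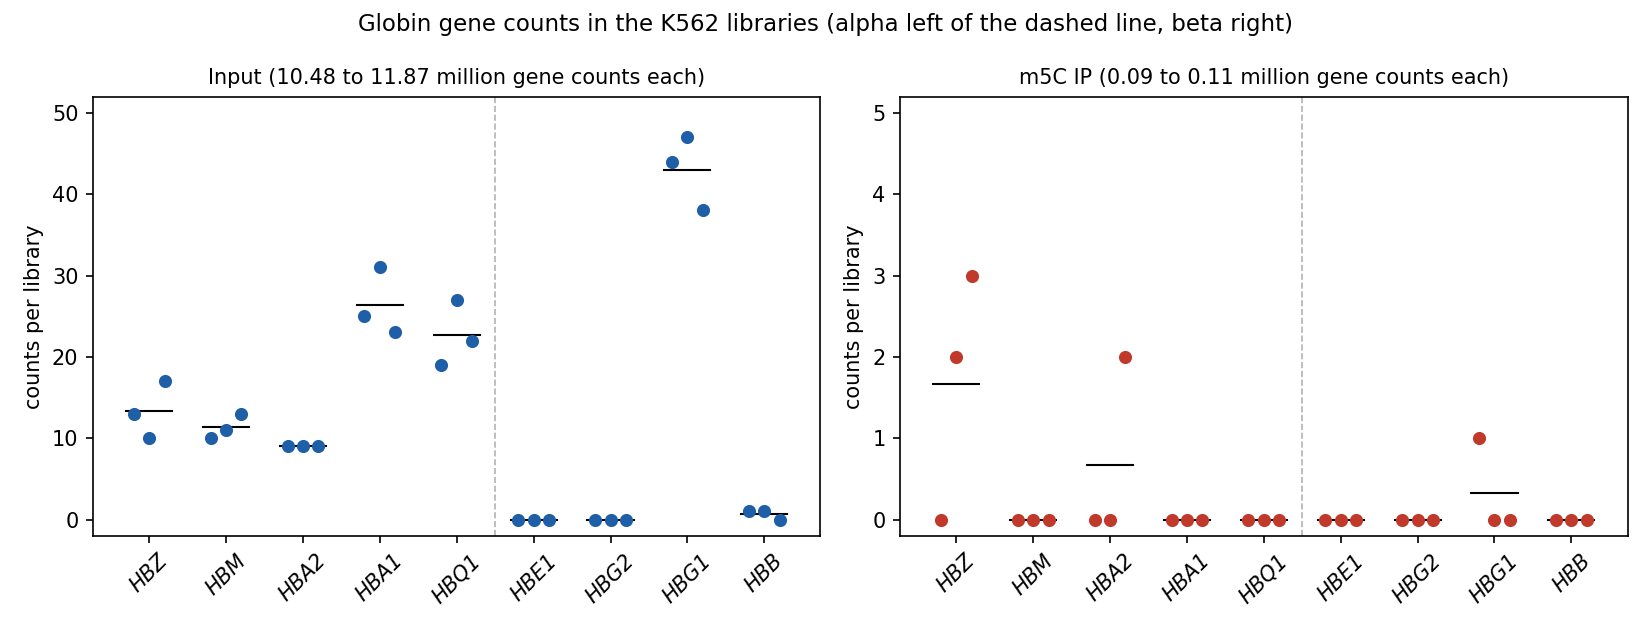
Counts per library of the 9 globin genes in the 3 Input libraries (left, blue) and the 3 m5C-IP libraries (right, red, on its own axis), with the mean as a bar. HBG1 is highest in Input at 38 to 47 counts, and no gene has more than 3 counts in an IP library.

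Levels were compared between genes per exonic length, taken as the union of exons of all annotated transcripts. HBQ1 stood at 3.81 ± 0.71 CPM per exonic kb in Input, HBA1 at 2.79 ± 0.37 and HBG1 at 2.59 ± 0.16, and each neighbour in this order overlapped the next. HBM (1.11 ± 0.23), HBZ (1.03 ± 0.33) and HBA2 (0.966 ± 0.064) followed, did not overlap HBG1 and overlapped one another. HBB was lowest among genes with counts, at 0.0437 ± 0.0379. The order is set by the length used for HBZ and HBM, whose annotated spans are 11776 and 12873 bases: per kb of span HBZ fell to 0.101 ± 0.033 and HBM to 0.0786 ± 0.0160 CPM, below HBA2 at 0.957 ± 0.063. Per kb of span HBQ1, HBA1 and HBG1 remained the upper 3, at 2.79 ± 0.52, 2.76 ± 0.37 and 2.39 ± 0.15 CPM. Per kb of main-transcript exon unique at 100 bases, HBG1 stood at 9.34 and HBA1 at 8.18 CPM. HBQ1, whose 528 exonic bases were all unique, stayed at 3.81 and fell below both. The order of these 3 genes thus depends on the length used.

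The rank of the globin genes among 19831 protein-coding genes depended on the length used. In Input CPM per exonic kb, 60.6% of genes lay below HBQ1, 57.0% below HBA1, 56.1% below HBG1 and 27.0% below HBB, while the median gene stood at 1.25. Per kb of span, where the median was 0.194, 88.9% lay below HBQ1, 88.7% below HBA1, 85.9% below HBG1 and 35.5% below HBB. GATA1, the factor that drives erythroid genes, stood at 56.0 CPM per exonic kb, and ALAS2, the erythroid enzyme that starts haem synthesis, at 13.9. AHSP, the chaperone of free alpha-globin, stood at 2.85, close to HBA1. Per kb of span GATA1 stood at 11.2, AHSP at 1.66 and ALAS2 at 1.30. On that scale ALAS2 and AHSP lay below HBQ1, HBA1 and HBG1, so this order too depends on the length used. Counts per gene in bulk RNA cannot separate fewer expressing cells from less RNA per cell.

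**Figure D3:**
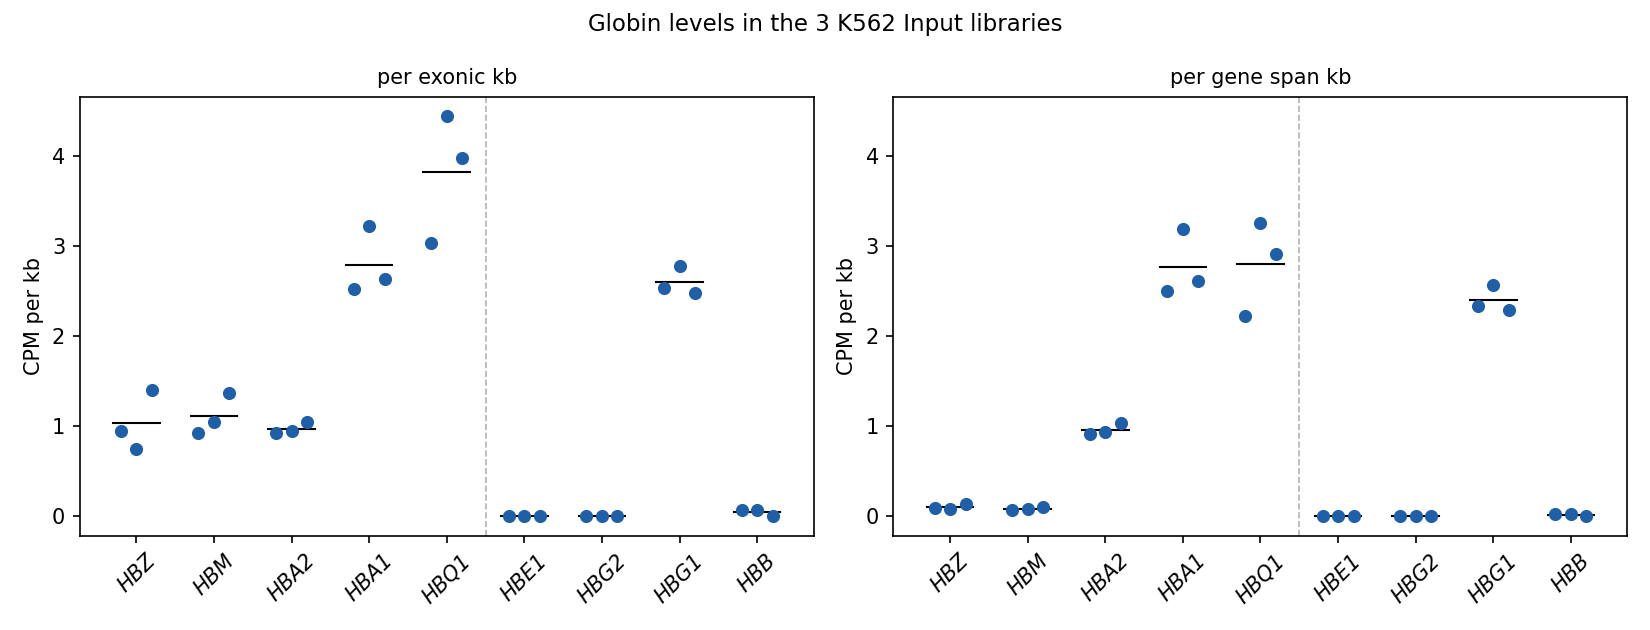
Input level of each globin gene in CPM per exonic kb (left) and CPM per kb of gene span (right), with 1 point per Input library and the mean as a bar. HBQ1, HBA1 and HBG1 are the upper 3 on both scales, and HBZ and HBM drop below HBA2 per kb of span.

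The comparison of m5C-IP with Input asks whether a transcript was enriched by the m5C antibody. Of the 2 globin genes that passed the filter, HBA1 and HBG1, none was called at an adjusted p under 0.05 by edgeR's quasi-likelihood test, and none had an unadjusted p under 0.05. Over all genes tested, 4576 of 14522 were called, or 31.5%. The filter asked for 1.89 CPM or more in at least 3 of the 6 libraries, a level that 1 IP count exceeds. HBA1 and HBG1 reached it in all 3 Input libraries, as did 13266 genes in all, of which 8.95% rose and 18.0% fell in IP. The other 1256 genes passed only with IP libraries, and of these 1004 rose and 0 fell, a direction that the filter itself favours. DESeq2 gave an adjusted p for 6 of the 9 and called 2, HBZ and HBA2, but neither HBA1 nor HBG1. At the Input level the 3 IP libraries together would have held 3.49 globin counts, and they held 8, a pooled ratio of 2.29 with an exact 95% counting interval of 0.981 to 4.56 that includes 1.

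HBZ had the most IP counts of the 9, with 0, 2 and 3 in IP replicates 1, 2 and 3 against 13, 10 and 17 in Input. Pooled over libraries it stood at 16.0 CPM after pull-down against 1.18 CPM before, a ratio of 13.6 with an exact 95% counting interval of 4.18 to 34.4. IP replicates 2 and 3 stood at 18.0 and 32.2 CPM, while the highest Input library stood at 1.62 CPM. A single IP count is 8.99 CPM or more, so any IP library with a count lies above Input and this order carries no weight. The 0 of IP replicate 1 allows up to 27.8 CPM, so at this depth it cannot be placed above or below Input. HBZ did not pass the filter on low counts and has no p in the main test. It was called higher in IP where that filter was relaxed to at least 10 counts in 3 libraries (log2 IP/Input 3.57 ± 0.89 SE, adjusted p = 0.000862, edgeR) or dropped (3.18 ± 0.93, adjusted p = 0.00385, edgeR), and by DESeq2 (3.65 ± 0.73, adjusted p = 6.12e-06). In those fits 25.5%, 26% and 36.2% of all genes tested were called, and 11.5%, 13.2% and 29.4% were called higher. The median log2 IP/Input over genes was -0.17, -0.71 and 2.37 in the same order. The DESeq2 value is therefore set around another centre than those of edgeR.

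The call of HBZ rested on IP replicate 3. It was tested again when 1 IP library was left out, and it was called without replicate 1 (4.07, adjusted p = 0.000461) and without replicate 2 (3.35, adjusted p = 0.0276), but not without replicate 3 (2.64, adjusted p = 0.166, edgeR). HBZ has a repeated copy in its cluster, a GC content of 68.4% over the gene body, and a span that overlaps HBM, and the share of records with several alignments was higher in IP than in Input, as given above. The part of these in the ratio of HBZ was not tested.

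HBA2 had 0, 0 and 2 counts in IP and 9 in each Input library. Its pooled ratio was 8.03 with an interval of 0.926 to 32.0, which includes 1. DESeq2 called it higher (2.91 ± 1.16, adjusted p = 0.0364), in a fit where the median over genes was 2.37. The fit by edgeR without a filter, with a median of -0.71, did not call it (2.42 ± 1.39, adjusted p = 0.204). Both IP counts came from IP replicate 3, the library on which the call of HBZ also rested.

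HBG1 had 1, 0 and 0 counts in IP. Its pooled ratio was 0.841 with an interval of 0.0211 to 4.77, and its log2 IP/Input was -0.45 ± 1.44 (SE) with an adjusted p of 0.857 (edgeR). A difference within these bounds was not detectable at this depth. HBA1, HBQ1 and HBM had no count in any IP library. With 3 counts over the group as the limit, their IP level could be up to 4.12, 4.79 and 9.57 times the Input level. HBA1 had an adjusted p of 0.357 (edgeR), and its fitted fold change, taken against 0 counts, is no bound. No ratio is given for HBB, HBE1 and HBG2, whose counts were at or under the limit in both groups.

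As sums, the 5 alpha genes stood at 6.41, 7.63 and 8.02 CPM in Input and at 0, 18.0 and 53.7 CPM in IP. The mean was 7.35 ± 0.84 CPM in Input and 23.9 ± 27.3 CPM in IP, where the 0 of IP replicate 1 again allows up to 27.8 CPM and gives no order against Input. The pooled ratio was 3.06 with a counting interval of 1.22 to 6.40, from 7 IP counts, of which 5 were HBZ. The 4 beta genes stood at 3.79, 4.16 and 3.63 CPM in Input and at 9.26, 0 and 0 CPM in IP, a mean of 3.86 ± 0.27 and 3.09 ± 5.35 CPM. Their pooled ratio was 0.828 with an interval of 0.0208 to 4.69, which overlaps that of the alpha sum. Without IP replicate 3 the alpha mean in IP was 8.99 CPM, and without replicate 1 it was 35.8 CPM.

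The loci differ in base composition, which bears on how much cytosine a transcript offers. Cytosine made up 33.5% to 38.4% of the main transcripts of the alpha genes and 25.0% to 25.8% of those of the beta genes. The alpha transcripts held 40 to 52 CpG pairs and the beta transcripts 5 to 7. GC content of the gene body was 67.0% to 71.7% in the alpha locus and 40.1% to 47.3% in the beta locus. With a correction for GC content, HBG1 had a log2 IP/Input of -0.57 ± 1.41 (adjusted p = 0.811, edgeR). The part of composition in the difference between the sums was not tested.

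**Figure D4:**
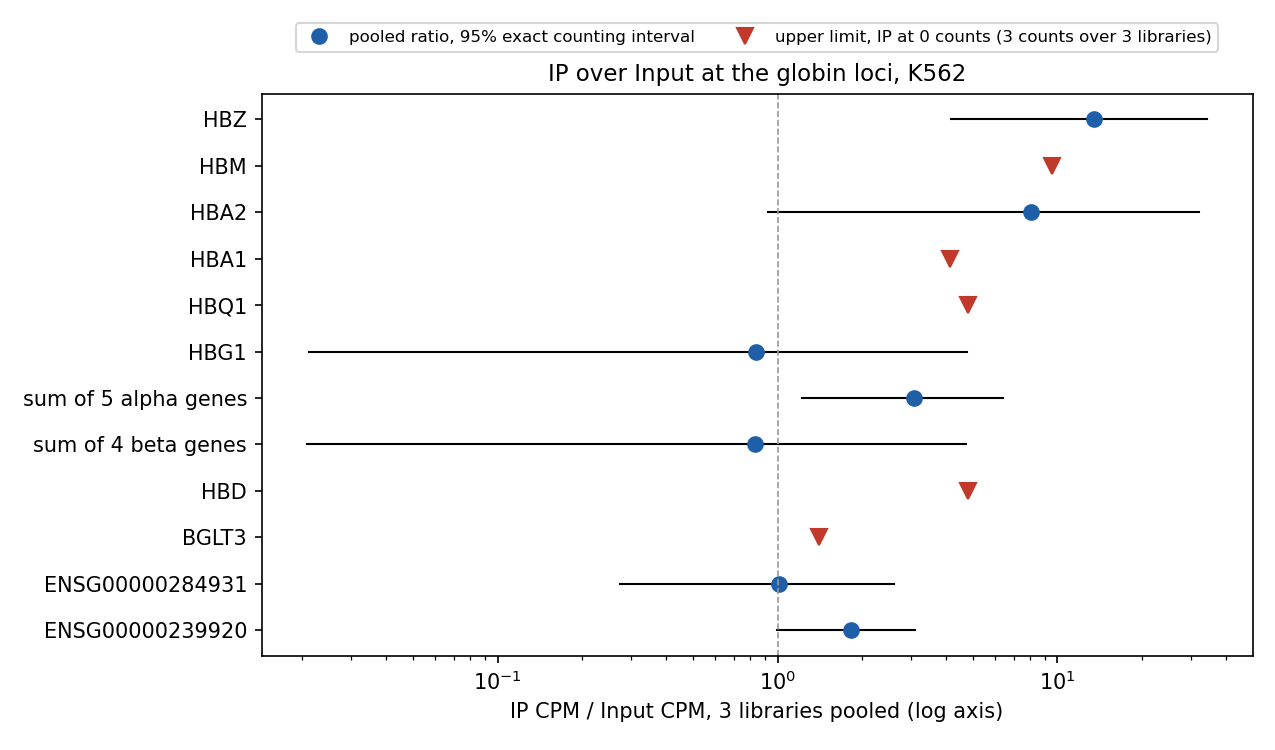
Ratio of pooled IP CPM to pooled Input CPM (log axis) for globin genes with over 3 counts, the locus sums, and the delta gene and other transcripts of the beta locus. Circles carry exact 95% counting intervals, and triangles are upper limits where IP was at 0. The interval of HBZ, 4.18 to 34.4, and that of the alpha sum, 1.22 to 6.40, lie above 1.

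Other transcripts annotated in or across the beta locus took more counts than its 4 globin genes listed above. ENSG00000284931, a gene annotated across the gamma genes, had 159, 136 and 135 counts in Input, and the 3330 bases it has to itself lie between HBG1 and HBG2. Its counts divided by those bases gave 3.81 ± 0.25 CPM per kb, and by its exonic bases 19.5 ± 1.3, against 2.39 ± 0.15 CPM per kb of span for HBG1. Where in the gene its counts fell is not known, so these levels give no order against HBG1. ENSG00000239920, a readthrough gene that spans the epsilon gene, ends within HBG2 and lies for the most part beyond the cluster, had 301, 272 and 255 counts, and BGLT3, a non-coding RNA gene at chr11:5244554-5245546 next to HBG1, had 76, 80 and 75. HBD, the adult delta gene, had 26, 23 and 19 counts, over a span of 10980 bases. The pseudogenes HBBP1, HBZP1 and HBAP1 were at 0, of which HBBP1 and HBZP1 have no base to themselves on their strand. With these added, the beta sum in Input was 49.8 CPM and in IP 59.3 CPM.

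Of these, BGLT3, ENSG00000284931 and ENSG00000239920 were tested and none was called in IP against Input. ENSG00000239920 had 4, 7 and 3 IP counts, a pooled ratio of 1.83 (0.998 to 3.09) and a log2 IP/Input of 0.67 ± 0.43 (adjusted p = 0.247, edgeR). ENSG00000284931 had 2, 2 and 0 IP counts and a pooled ratio of 1.01 (0.274 to 2.60), with a log2 IP/Input of -0.19 ± 0.76 (adjusted p = 0.886, edgeR). BGLT3 had no IP count where 2.13 were due at the Input level, so that its IP level could be up to 1.41 times that in Input (adjusted p = 0.107, edgeR). HBD, which was not tested, had no IP count either, with a limit of 4.79 times.

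Around the alpha cluster, 17 further genes lie inside it or within 100000 bases, of which 7 were tested, 0 rose and 2 fell. The shares over all genes tested were 15.1% and 16.4%, so 2 of 7 is not read as a trait of the neighbourhood. NPRL3, a gene of amino acid signalling whose introns hold the alpha-globin enhancers, had 6919 Input and 41 IP counts. It fell by 0.84 on the log2 scale (adjusted p = 0.000502, edgeR). The call was lost in each fit without 1 Input library (adjusted p = 0.148 to 0.184, edgeR). There the median library is an IP library, so the filter level rose and 3721 to 3726 genes were tested against 14522. Such a loss cannot be laid to a single Input library. FAM234A fell by 1.41 (adjusted p = 0.0368, edgeR), with 1252 Input and 5 IP counts, and was called in 4 of the 12 fits that tested it, with a log2 IP/Input of -1.76 to -1.15 over these fits. The call was lost by DESeq2, under RLE or library size scaling, with the filter of at least 10 counts and with the replicate block. It was also lost when any 1 of the 3 IP libraries was left out, where the log2 IP/Input was -1.61 to -1.31 (adjusted p = 0.0645 to 0.101, edgeR). Around the beta cluster, 22 further genes include a block of olfactory receptor genes, and the 3 tested are those given above.

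Genes that supply haem, iron and the red cell membrane, and factors that control the globin genes, were counted at far higher depth. Of 59 such genes, 55 were tested, 5 rose and 16 fell in IP, while over all genes tested 15.1% rose and 16.4% fell. Under library size scaling alone 5 rose and 7 fell. That scaling moved the median log2 IP/Input of all genes from -0.16 to 0.11, so directions are relative to the TMM scaling. Of the 55, 54 reached the filter through Input alone, and of these 4 (7.41%) rose and 16 (29.6%) fell. Among all genes that reached it so, 8.95% rose and 18.0% fell. Those that rose included UROD, GATA1, CHD4 and ADD2, named after their values were seen.

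Of the 9 enzymes of haem synthesis, all were tested, 1 rose and 2 fell, and the median log2 IP/Input was -0.57 against -0.16 over all genes tested. That last median includes genes that passed only with IP libraries, while all 9 enzymes passed through Input alone. Of all genes that did, 8.95% rose and 18.0% fell, against 11.1% and 22.2% of the enzymes. UROD, uroporphyrinogen decarboxylase, was highest, with 12, 16 and 14 IP counts against 671, 624 and 576 in Input, and rose by 1.08 ± 0.25 (adjusted p = 0.0002, edgeR). UROS, the synthase one step earlier, was lowest and fell by 1.28 ± 0.31 (adjusted p = 0.000374, edgeR), with 1, 7 and 8 IP counts against 1272, 1271 and 1112. The call of UROS was lost without IP replicate 1 and without any 1 of the Input libraries (adjusted p = 0.0504 to 0.0789, edgeR), while UROD was called in all 16 fits. The fits without 1 Input library had the raised filter described for NPRL3.

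Of the 13 genes of iron and haem supply, 11 were tested, 0 rose and 3 fell, with a median of -0.48. All 11 passed through Input alone, and 0% rose and 27.3% fell, against 8.95% and 18.0% of all such genes. FLVCR1, described as a haem exporter, was lowest and fell by 1.04 ± 0.36 (adjusted p = 0.0181, edgeR), and was called in 6 of 12 fits, the call being lost without IP replicate 1 or 3 (adjusted p = 0.0549 to 0.0557, edgeR), under library size scaling alone (adjusted p = 0.126, edgeR), by DESeq2 and with the GC correction. STEAP3, a ferrireductase, was highest at 0.08 ± 0.25 (adjusted p = 0.847, edgeR).

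Of the 19 regulators of globin genes, 18 were tested, 2 rose and 6 fell, with a median of -0.23. All 18 passed through Input alone, and 11.1% rose and 33.3% fell, against 8.95% and 18.0% of all such genes. LIN28B, an RNA-binding protein linked to the fetal programme, was lowest and fell by 1.04 ± 0.21 (adjusted p = 1.16e-05, edgeR), with 11, 17 and 13 IP counts against 2781, 2590 and 2550 in Input. Without Input replicate 1, and so under the raised filter, it was at -0.60 (adjusted p = 0.0517, edgeR). CHD4, a chromatin remodeller, was highest and rose by 2.31 ± 0.80 (adjusted p = 0.0161, edgeR), on 2, 3 and 1 IP counts, and the call was lost without IP replicate 1 or 2 (adjusted p = 0.072 to 0.209, edgeR) and with block and GC correction together. GATA1 had 28, 38 and 25 IP counts against 1016, 1018 and 914 in Input and rose by 1.54 ± 0.18 (adjusted p = 7.41e-14, edgeR), in all 16 fits.

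Of the 18 genes of the red cell membrane, 17 were tested, 2 rose and 5 fell, with a median of -0.16. Through Input alone 16 passed, of which 1 (6.25%) rose and 5 (31.2%) fell, against 8.95% and 18.0% of all such genes. ADD2, the beta-adducin, rose by 0.79 ± 0.23 (adjusted p = 0.00292, edgeR), a call lost without IP replicate 1 (adjusted p = 0.0518, edgeR) and with no filter on low counts.

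**Figure D5:**
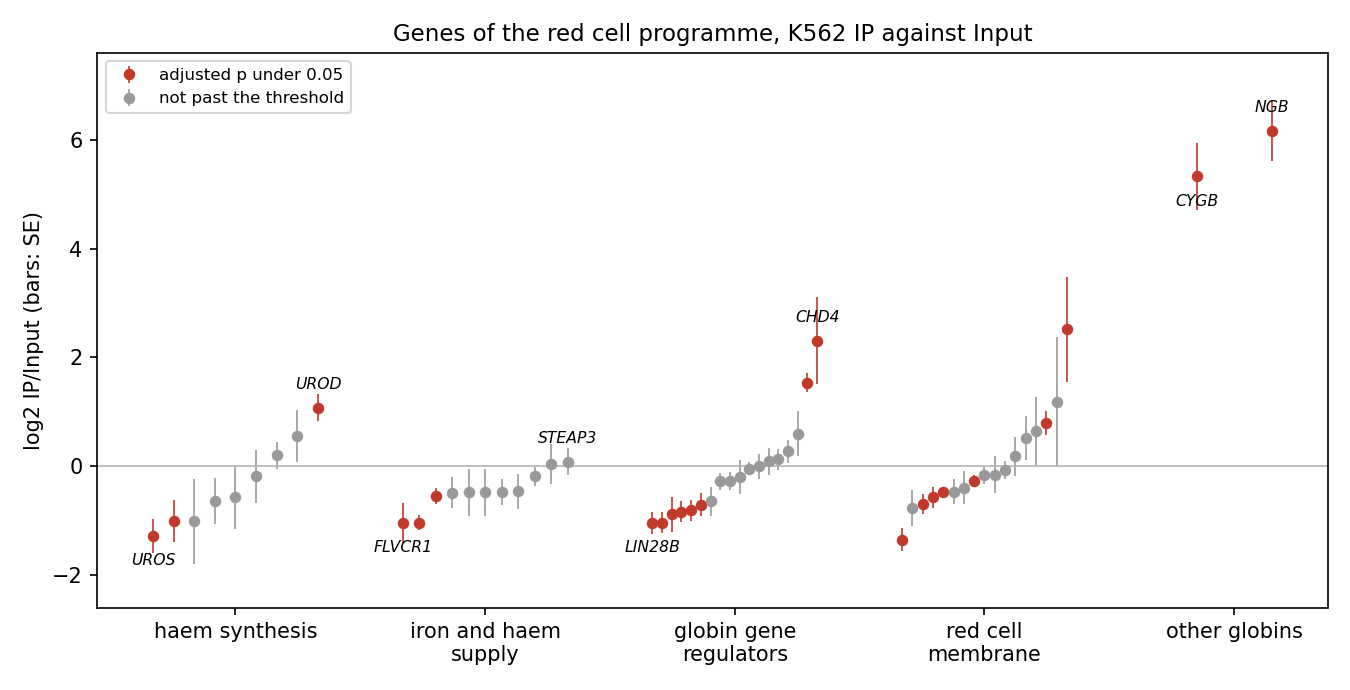
The log2 IP/Input of each tested gene by list, with SE as bars, red where the adjusted p was under 0.05, and the highest and lowest gene named for each list except the membrane list. The haem, regulator and membrane lists spread around or under 0, and CYGB and NGB, which passed the filter only with IP libraries, stand above 5.

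Of 5 other globin genes, HBD, MB, CYGB, NGB and ADGB, NGB and CYGB passed the filter, and only through IP, so that the main test could hardly have shown them lower. NGB, the neuroglobin, had 8, 7 and 4 IP counts against 9, 8 and 7 in Input, so that the counts were alike although the Input libraries were far deeper. With no filter on low counts its log2 IP/Input was 5.83 ± 0.59 (adjusted p = 1.2e-20, edgeR). CYGB, the cytoglobin, had 8, 3 and 3 IP counts against 13, 10 and 9, and with no filter a log2 of 4.98 ± 0.64 (adjusted p = 5.55e-13, edgeR). In that fit 13.2% of all genes tested were called higher.

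The marker lists were read in the same way. Of 7 erythroid markers tested, 6 reached the filter through Input alone, of which 1 rose and 1 fell. Among all genes that reached it so, 8.95% rose and 18.0% fell. These shares also stand beside the chromatin-retained RNAs below. TFRC, the transferrin receptor, was lowest at -0.54 ± 0.15 (adjusted p = 0.00215, edgeR). Its call was lost under library size scaling alone (adjusted p = 0.198, edgeR). It was also lost in each fit without 1 Input library (adjusted p = 0.564 to 0.678, edgeR), under the raised filter described for NPRL3. PAX5, the only lymphoid marker tested, passed the filter through IP alone, on 1, 1 and 3 IP counts against 13, 13 and 9 in Input, and no direction is read from it. LYZ, the only myeloid marker tested, had 0.76 ± 1.58 (adjusted p = 0.767, edgeR), and no pluripotency marker was tested. Of 4 chromatin-retained RNAs, 3 reached the filter through Input alone, 2 rose and KCNQ1OT1 fell by 0.98 ± 0.18 (adjusted p = 2.93e-06, edgeR). The 2 that rose, named after their values were seen, were MALAT1 at 3.38 ± 0.06 (adjusted p = 5.68e-133, edgeR) and NEAT1 at 1.56 ± 0.08 (adjusted p = 1.65e-46, edgeR). MEG3 passed through IP alone, on 3 counts in each IP library against 9, 5 and 7 in Input, and no direction is read from it.

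Genes nearest to the locus sums were sought among the 320 genes with at least 30 counts in every IP library, by the Euclidean distance of centred log2(CPM + 1) over the 6 K562 libraries. For the beta sum these were SLC38A4-AS1, SLC25A21 and ZFAND3, at distances of 2.22, 2.32 and 2.40, which stood at 614, 1246 and 1180 CPM in Input and 399, 672 and 759 CPM in IP. For the alpha sum they were AARS1, DOT1L and KLHDC4, at 3.72, 3.74 and 3.78. The sums reached 0 in 1 or 2 IP libraries while these genes had counts in every library, and the distances are given as a description.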

How the data were processed

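caRNA of K562 and mESC was fragmented, pulled down with an m5C antibody or kept as Input, and made into libraries with a strand-preserving kit. Per the submitters' processing notes, reads were trimmed with Trimmomatic 0.39 and aligned with HISAT2 2.1.0 to hg38 or mm10. The authors deposited raw counts per gene, which end in the summary lines of HTSeq. The study removed duplicates with Picard MarkDuplicates before peaks were called. Whether this came before counting, the counting options and the read length were not given in the sources used here. Spike-in RNA was not used here, so values are relative within a library. The summary lines were dropped before scaling and testing. The 3 mESC peak lists were not used.

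Groups and replicate numbers came from the titles. IP was compared with Input in the 6 K562 libraries with edgeR 4.0.16 (filterByExpr, TMM, glmQLFit and glmQLFTest, no covariate) over all genes, with Benjamini-Hochberg adjustment at 0.05 over all genes tested. SE was the absolute log2 IP/Input divided by the square root of F. Alternatives were DESeq2 1.42.0, other scalings, other filters, a GC correction, Input counts thinned to the IP depth, a replicate block and each library left out in turn. Sums, shares and levels have no test. CPM was counts scaled to 1000000 gene counts per library, pooled ratios used exact (Clopper-Pearson) 95% intervals without TMM, and shares used Wilson intervals. Unique windows were counted on both strands of hg38. Symbols, spans and sequences came from GENCODE 44 and hg38, and 58252 of 58721 gene IDs matched (99.2%). The study names another GENCODE release. The test was tried on simulated counts before use.

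The genes named were the 9 globins, genes within 100000 bases of the clusters that passed the threshold, the highest and lowest tested gene of each list, and the 3 nearest profiles to each locus sum. Some of these genes are not reported here. The lists were haem synthesis, iron and haem supply, globin regulators, red cell membrane, other globins, markers of erythroid, lymphoid, myeloid and pluripotent cells, chromatin-retained RNA and mouse globins. The members and lists were chosen with earlier results of these data known. The chi-square between Input libraries, divided by its degrees of freedom, was 0.905 to 1.04 over genes, about what counting error alone gives. Over GC bins it was 21.1 to 98.6. Between IP libraries it was 1.18 to 1.26 over genes, above 1, and 1.06 to 1.4 over GC bins. The libraries of each group were kept as 3 samples, but none of these values shows that they came from separate cultures. The main edgeR fit put the common spread beyond counting error at a coefficient of variation of 0.00988. Its p-values may therefore cover little more than counting error. Same-numbered IP and Input libraries did not deviate together, and the numbers were not used as pairs.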

Additional observations from a re-analysis of the deposited data

Results flagged for a closer look

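The mESC libraries enter no comparison above, and 1 mouse globin gene had counts there beyond the limit of 3 that a count of 0 allows. Hba-x, the mouse gene of the embryonic zeta-like chain, had 22 counts over the 3 mESC Input libraries and 12 over the 3 mESC IP libraries. By library these were 2, 7 and 13 in Input and 1, 2 and 9 in IP, or 0.0689, 0.212 and 0.374 CPM in Input and 2.11, 3.40 and 15.2 CPM in IP. Every IP library stood above every Input library, an order that 1 count in an IP library already gives at this depth. The pooled ratio was 31.9 with an exact 95% counting interval of 14.4 to 67.4, and IP replicate 3 held 9 of the 12 IP counts. Gene counts were 29007088 to 34752646 per mESC Input library and 473398 to 592324 per IP library, so that IP replicates 1 and 2 were each under the limit of 3 counts. Of the other 9 mouse globin genes, Hbq1a had 1 count in Input and 1 in IP, and the remaining 8 were at 0 in all 6 mESC libraries. No test of Hba-x was made, since the comparison was not among those planned.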

How the results depend on the processing

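Of the 9 globin genes 0 were called in IP against Input, and 1, HBZ, was called with no filter on low counts, with a filter of at least 10 counts in 3 libraries, and without IP replicates 1 or 2 (0 to 1 calls over the libraries left out in turn), while DESeq2 called 2. In the fit on Input counts thinned to the IP depth and in those without 1 Input library, no globin gene passed the filter, so these say nothing of them. HBG1 ranged from -7.71 to 0.0962 with 1 IP library left out, turning sign without IP replicate 2, and HBA1 kept its sign throughout, both without a call. Over all genes 4576 calls became 8941 by DESeq2, 8237 without a filter, 549 with thinned Input, and 1090 to 4394 with 1 library left out, where the fits without 1 Input library tested 3721 to 3726 genes. Of the calls, 47.9% were higher, against 57.1% with RLE scaling, 70.2% with library size alone and 81.2% by DESeq2. The 21 calls among the haem, iron, regulator and membrane genes became 12 with library size alone, 33 without a filter, 7 with thinned Input and 9 to 21 with 1 library left out.

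The alpha sum in Input moved from 7.35 CPM to 5.43 when scaled to all counted records, and the beta sum from 3.86 to 2.85, to 4.24 with TMM scaling and to 49.8 with HBD, pseudogenes and locus transcripts added, which also moved the beta sum in IP from 3.09 to 59.3 CPM. Per kb of gene span HBG1 stood at 2.39 CPM and HBZ at 0.101, per kb of exon unique at 100 bases HBG1, HBA1, HBZ and HBB at 9.34, 8.18, 1.81 and 0.0908, and, chosen after seeing the data, per kb of span free of other genes HBZ at 0.107. For each of these the denominator or the genes added set the change.

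Same-numbered IP and Input libraries correlated at -0.00646, 0.0108 and 0.0222 in their deviations from the group means. With a replicate block 3940 genes were called, 18 of the list genes and 0 globin genes, and with block and GC correction 3325, 18 and 0. The depth of the IP libraries limits every globin ratio given.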
